A study of Mus musculus with 8 samples.

Results

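Bile acid synthesis and conjugation were examined through 10 liver enzymes, chosen by symbol: Cyp7a1, Cyp8b1, Cyp27a1, Cyp7b1, Cyp2c70, Baat, Hsd3b7, Akr1d1, Slc27a5 and Acox2. All 10 were on the array, with 13 of its 25697 identified probes, and all 10 exceeded background on each of the 8 arrays, so no enzyme was lost to the filter on dim probes. Total RNA came from livers of C57BL mice aged 18 days, 4 samples with the genotype Cic-L-/- and 4 labelled wildtype, and each was hybridised to its own single-colour Illumina bead array. Cic encodes capicua, a protein that represses transcription, and the genotype label names its long isoform, CIC-L. The series asks what part capicua plays in metabolism. The sources used here name no treatment, Cre driver, allele design, sex or time of day. The samples are numbered 1 to 4 within a group without a statement that they are separate animals, so p-values measure the spread between samples, which may be partly technical.

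Hepatocytes turn cholesterol into bile acids along a pair of routes. The classical route starts with the 7-alpha-hydroxylation of cholesterol by CYP7A1, and the alternative route with side-chain oxidation by CYP27A1 followed by 7-alpha-hydroxylation by CYP7B1. The steroid ring is then modified by HSD3B7, CYP8B1 and AKR1D1, the side chain is shortened in peroxisomes with the help of ACOX2, and SLC27A5 and BAAT join the product to taurine or glycine. In mice CYP2C70 further converts chenodeoxycholic acid to muricholic acids.

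Values are log2 signals after background correction and quantile normalisation unless stated otherwise, and a difference is the Cic-L-/- mean minus the wildtype mean. Between 38.7% and 43.5% of probes exceeded background on an array. On the first principal component of all features, which held 42.5% of the variance, Cic-L-/- replicates 1 and 2 lay at -26.6 and -26.1. Replicates 3 and 4 lay at -14.8 and -12.9, nearer to the wildtype arrays (17.9 to 23.4). These pairs also stood apart on the second component, which held 14.2% of the variance (13.7 and 12.8 against -11.6 and -25.0). Counts are therefore also given without either pair. On all 8 arrays the probe for Cic itself stayed within background (4.33 to 4.58 in Cic-L-/- liver and 4.45 to 4.88 in wildtype liver), so it did not check the genotype labels.

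The first step of the classical route and the last step of conjugation showed the strongest falls. Cyp7a1 and Baat were reduced to 24.7% and 30.8% of their wildtype levels. Cyp8b1, Cyp27a1 and Cyp2c70 fell to between 53.1% and 62.9%. In all, 5 of the 10 enzymes fell and 0 rose at a limma adjusted p under 0.05. Of all 8255 features tested, 7.39% were called, 2.9% lower and 4.49% higher in Cic-L-/- liver. The groups did not overlap for the same 5 enzymes, all lower, and for 0 in the other direction, beside 6.55% of all features lower and 8.53% higher. In whole liver, fewer hepatocytes and less RNA per hepatocyte cannot be told apart. The other 5 enzymes did not pass, 4 of them with a negative and 1 with a positive difference. The median difference of the 10 enzymes was -0.62, beside 0.00316 over all features. The enzymes had been chosen with earlier results of these data known, so their count and median are descriptions. The count of falls was 2 without Cic-L-/- replicates 1 and 2 and 3 without replicates 3 and 4, and it was 2 with median centring in place of quantile normalisation. Median centring also moved the split of all calls from 371 higher and 239 lower to 683 higher and 134 lower, and the median difference of all features to 0.165.

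**Figure D1:**
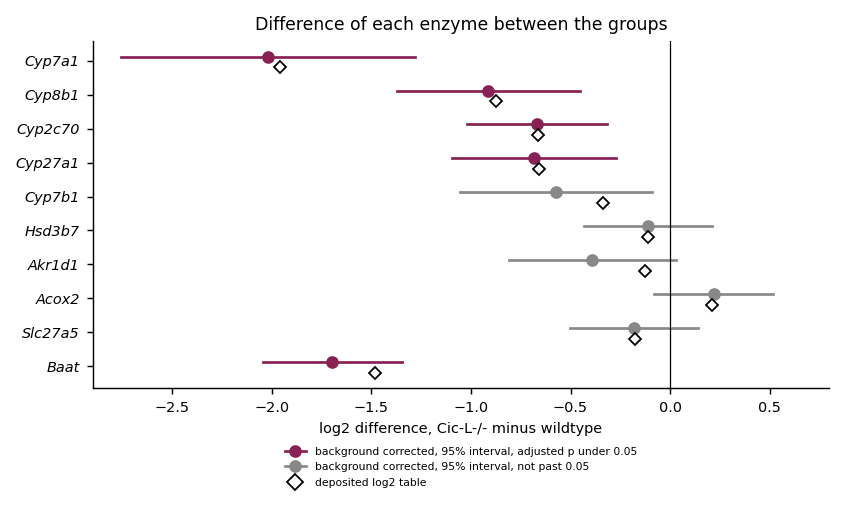
Log2 difference between Cic-L-/- and wildtype liver for each enzyme, with filled points and bars for the background-corrected estimate and its 95% interval, and open diamonds for the difference in the deposited log2 table. The Cyp7a1 and Baat points lie furthest from 0, at -2.02 and -1.70, and the Hsd3b7, Slc27a5 and Acox2 points nearest to it.

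Cyp7a1 catalyses the rate-limiting step of the classical route. Its values were 13.43, 13.09, 13.39 and 12.94 in wildtype replicates 1 to 4 and 10.54, 10.46, 11.59 and 12.19 in Cic-L-/- replicates 1 to 4. The groups did not overlap, and the highest Cic-L-/- value lay 0.76 below the lowest wildtype value. The difference was -2.02 ± 0.34 (SE, adjusted p = 0.00514), with a 95% interval from -2.76 to -1.28. The deposited signals, which are not normalised between arrays, showed the same separation, from 1595 to 4894 in Cic-L-/- liver and from 6954 to 11360 in wildtype liver. In the deposited log2 table the difference was -1.96, so the size of this fall changed little with background correction.

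The spread of Cyp7a1 was wider in Cic-L-/- liver (SD 0.84, n = 4) than in wildtype liver (SD 0.24, n = 4). Replicates 1 and 2, which held the lowest values, deviated from the wildtype mean by -2.68 and -2.76, and replicates 3 and 4 by -1.62 and -1.03. Without Cic-L-/- replicates 1 and 2 the difference was -1.32 (adjusted p = 0.0295), the highest adjusted p of the 18 alternatives. The lowest, 0.000125, came without replicates 3 and 4, where the difference was -2.72.

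Cyp8b1 is the sterol 12-alpha-hydroxylase that directs intermediates to cholic acid. It read 11.66, 11.49, 12.40 and 11.91 in wildtype replicates 1 to 4 and 11.06, 11.26, 10.79 and 10.71 in Cic-L-/- replicates 1 to 4. All Cic-L-/- values were below all wildtype values, by a gap of 0.23. The fall was -0.91 ± 0.21 (SE, adjusted p = 0.0238). The deposited signals of Cyp8b1 did overlap, from 1788 to 2832 in Cic-L-/- liver and from 2630 to 5419 in wildtype liver, so the separation appeared only after normalisation between arrays. Its call ended in 8 of 18 alternatives, 4 of which left out 1 array (wildtype replicate 4, or Cic-L-/- replicate 1, 3 or 4), with adjusted p from 0.00459 to 0.125 over all 18.

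Cyp2c70, the mouse muricholic acid enzyme, had wildtype values of 14.75, 14.64, 14.26 and 14.78 and Cic-L-/- values of 13.76, 13.90, 14.11 and 13.99 in replicates 1 to 4. The groups were apart by 0.15, with wildtype replicate 3 closest to the Cic-L-/- arrays. The fall was -0.67 ± 0.16 (SE, adjusted p = 0.0292). The deposited signals, 16350 to 17860 against 19790 to 28210, did not overlap either. Leaving out any 1 of 5 arrays (wildtype replicates 1, 2 and 4, Cic-L-/- replicates 1 and 2) ended the call, and adjusted p ran from 0.00323 to 0.203 over the 18 alternatives.

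Cyp27a1, the mitochondrial sterol side-chain hydroxylase that opens the alternative route, was read by 3 probes. The brightest, which stood for the gene, gave 12.12, 12.16, 11.48 and 11.60 in wildtype liver and 11.36, 11.20, 11.15 and 10.93 in Cic-L-/- liver, in replicates 1 to 4. Wildtype replicates 3 and 4 lay close to the Cic-L-/- values, and the gap between the groups was 0.12. The difference was -0.68 ± 0.19 (SE, adjusted p = 0.0498), at the edge of the threshold. This call ended in 12 of 18 alternatives, among them the removal of any 1 array but wildtype replicate 3, with adjusted p from 0.0135 to 0.173.

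The other Cyp27a1 probes differed in the same direction. One of them separated the groups, with wildtype values of 11.53, 11.52, 10.76 and 11.14 against 10.30, 10.51, 10.46 and 10.34 in Cic-L-/- liver, a difference of -0.83 (adjusted p = 0.0232 over all kept probes). The third ranged from 9.47 to 10.43 in wildtype and from 8.84 to 9.76 in Cic-L-/- liver and overlapped, with a difference of -0.76 (adjusted p = 0.102). On all 3 probes wildtype replicate 3 was the lowest wildtype value and replicates 1 and 2 the highest.

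Cyp7b1, the oxysterol 7-alpha-hydroxylase that continues the alternative route, was read at 7.36, 7.64, 7.49 and 8.16 in wildtype liver and at 7.45, 7.29, 6.96 and 6.65 in Cic-L-/- liver. The groups overlapped, since Cic-L-/- replicate 1 lay above wildtype replicate 1. The difference of -0.57 ± 0.22 (SE) did not pass (adjusted p = 0.147), and its 95% interval ran from -1.05 to -0.09. The probe was dim, with deposited signals of 229.4 to 358.3 in Cic-L-/- and 270.5 to 341.4 in wildtype liver, and its difference was -0.34 in the deposited log2 table. The size for this gene therefore depended on background correction.

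**Figure D2:**
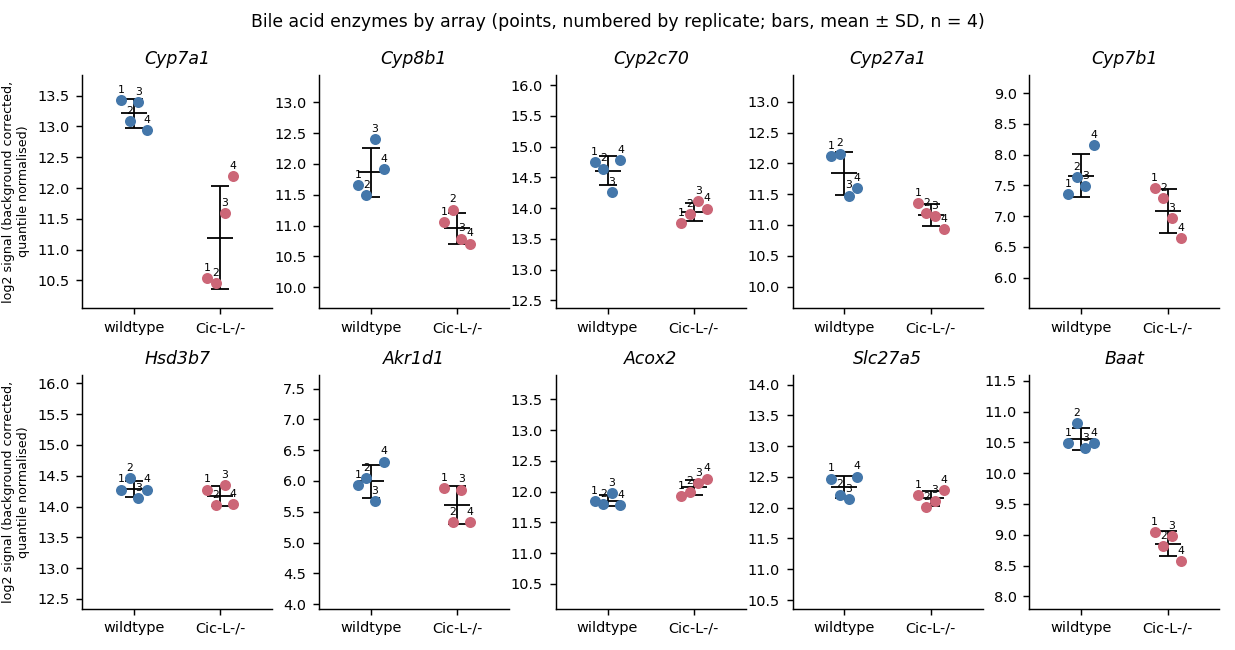
Log2 signal of each enzyme on each array, with points numbered by replicate, blue for wildtype and red for Cic-L-/-, and bars for the mean ± SD (n = 4). Every panel spans the same log2 range. The groups are fully apart for Cyp7a1, Cyp8b1, Cyp2c70, Cyp27a1 and Baat and overlap for the other 5 enzymes.

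Hsd3b7 and Akr1d1 act between hydroxylation and side-chain shortening. Hsd3b7, the steroid dehydrogenase used by both routes, was bright and steady. It read 14.27, 14.46, 14.13 and 14.27 in wildtype and 14.27, 14.02, 14.35 and 14.04 in Cic-L-/- liver, a difference of -0.11 ± 0.15 (SE, adjusted p = 0.701). The interval from -0.43 to 0.21 does not hold a fall as large as that of any of the 5 called enzymes. The other Hsd3b7 probe differed by -0.10 (adjusted p = 0.746 over all kept probes). With median centring the sign of the brighter probe turned, to 0.000973.

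Akr1d1, the 5-beta-reductase that sets the bent ring shape of bile acids, had the dimmest probe of the 10 enzymes. Its values were 5.93, 6.05, 5.68 and 6.31 in wildtype and 5.88, 5.33, 5.86 and 5.34 in Cic-L-/- liver. Cic-L-/- replicates 2 and 4 lay below every wildtype array and replicates 1 and 3 within their range. The difference of -0.39 ± 0.19 (SE, adjusted p = 0.257) was -0.13 in the deposited log2 table. The deposited signals ran the other way, from 166.5 to 199.1 in Cic-L-/- and from 158.0 to 171.5 in wildtype liver, beside median control signals of 138.5 to 141.9 and 114.2 to 136.3. The 95% interval of the difference ran from -0.81 to 0.03.

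Acox2, the peroxisomal oxidase of branched-chain acyl-CoA, was the enzyme with a positive difference. It read 11.84, 11.79, 11.98 and 11.78 in wildtype and 11.93, 12, 12.14 and 12.21 in Cic-L-/- liver. Wildtype replicate 3 lay above Cic-L-/- replicate 1, so the groups overlapped. The difference of 0.22 ± 0.14 (SE) did not pass (adjusted p = 0.383), with a 95% interval from -0.08 to 0.52. In the deposited signals alone Acox2 was higher in every Cic-L-/- array (4326 to 4951) than in any wildtype array (3311 to 4187), a separation that quantile normalisation removed.

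Slc27a5 and Baat carry out conjugation. Slc27a5, the bile acyl-CoA synthetase that activates bile acids for conjugation, read 12.47, 12.21, 12.14 and 12.51 in wildtype and 12.20, 12.01, 12.12 and 12.29 in Cic-L-/- liver. The groups overlapped, and the difference was -0.18 ± 0.15 (SE, adjusted p = 0.513) with a 95% interval from -0.50 to 0.14. Baat, the transferase that adds taurine or glycine, read 10.49, 10.82, 10.41 and 10.49 in wildtype and 9.04, 8.82, 8.98 and 8.58 in Cic-L-/- liver. The gap between the Baat groups, 1.37, was the widest of the 10 enzymes. Baat fell by 1.70 ± 0.16 on the log2 scale (SE, adjusted p = 8.99e-05), a 3.24-fold change on the corrected scale and 2.79-fold in the deposited log2 table. The Baat call held in all 18 alternatives, with adjusted p of at most 0.00323.

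Differences between enzymes were tested within arrays, which removes what an array's enzymes share. There were 4 contrasts, each with an exact permutation test over all 70 assignments of the samples to groups (two-sided, smallest possible p = 0.0286), and p was adjusted over the 4. Baat minus Slc27a5 was -1.78 ± 0.29 in wildtype and -3.30 ± 0.27 in Cic-L-/- liver (SD, n = 4, exact p = 0.0286, adjusted p = 0.114), and the groups did not overlap. Cyp7a1 minus Cyp27a1 went from 1.37 ± 0.41 to 0.04 ± 1.00 (SD, n = 4, exact p = 0.0571, adjusted p = 0.114). Cyp7a1 minus Cyp7b1 changed by -1.45 (exact p = 0.0857) and Cyp7a1 minus Cyp8b1 by -1.11 (exact p = 0.114), both with an adjusted p of 0.114. None of the 4 contrasts passed after adjustment. A single contrast at the smallest possible p cannot pass while the others stay above that p. Baat minus Slc27a5 was in that position, so its adjusted p says nothing of the size of its change. A larger fall of the classical than of the alternative route was not shown by these tests. Without Cic-L-/- replicate 4, the array with the highest Cyp7a1 of its group, all 4 reached an adjusted p of 0.0286 in the exact permutation test, the smallest that 3 against 4 arrays allow, and over the single-array removals the adjusted p ran from 0.0286 to 0.257.

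**Figure D3:**
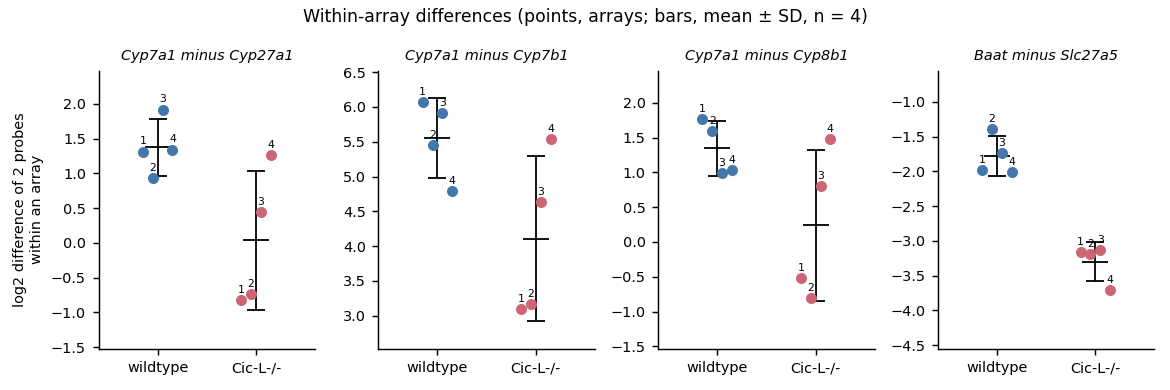
Log2 difference between a pair of enzymes within each array, with points numbered by replicate and bars for the mean ± SD (n = 4). The Baat minus Slc27a5 points of Cic-L-/- liver lie below every wildtype point, and in the 3 contrasts with Cyp7a1 Cic-L-/- replicate 4 lies within the wildtype range.

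The enzymes did not order the Cic-L-/- arrays alike. Cyp7a1 was lowest in replicates 1 and 2, and so was Cyp2c70 (-0.85 and -0.71 from the wildtype mean, against -0.49 and -0.62 in replicates 3 and 4). Cyp8b1, Cyp7b1 and the probe that stood for Cyp27a1 were lowest in replicates 3 and 4, with Cyp8b1 at -1.08 and -1.16 and Cyp7b1 at -0.70 and -1.01 from the wildtype mean. The other Cyp27a1 probes differed in this. The one that overlapped between groups was also lowest in replicates 3 and 4 (8.95 and 8.84). The one that separated the groups was lowest in replicate 1 (10.30, against 10.51, 10.46 and 10.34 in replicates 2 to 4). In wildtype liver, replicate 3 held the highest Cyp8b1 and the lowest Cyp27a1 and Cyp2c70. Baat lay between -1.97 and -1.51 from the wildtype mean on all 4 Cic-L-/- arrays.

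**Figure D4:**
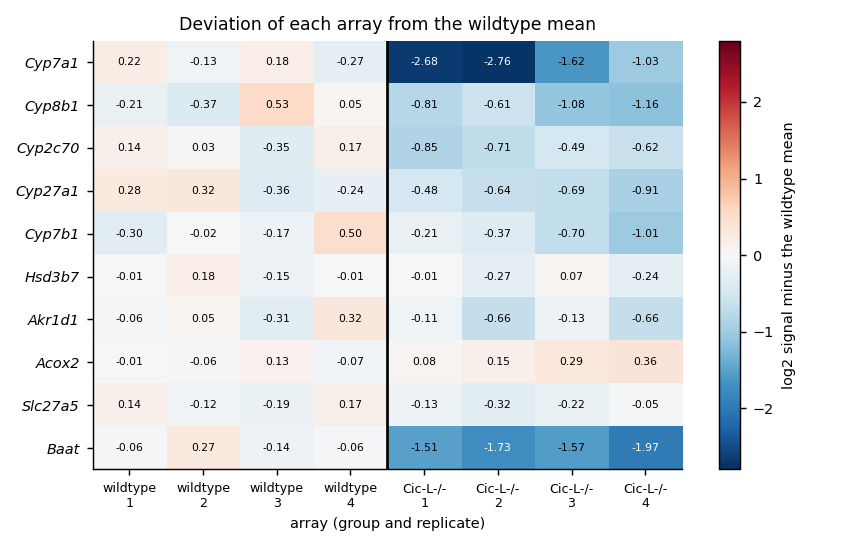
Log2 signal of each enzyme on each array minus the wildtype mean of that enzyme, blue for below and red for above, with the value written in each cell. The Cyp7a1 cells of Cic-L-/- liver run from -2.76 to -1.03, while the Baat cells run from -1.97 to -1.51.

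Promoters of the enzymes that fell together are shown where RefSeq gave one, for Cyp8b1, Cyp2c70 and Cyp27a1, beside that of Akr1d1, which did not pass. RefSeq promoters (300 bases, from 250 before to 50 after the start) matched 6 of the 10 enzymes. Cyp7a1 and Baat, the enzymes with the strongest falls, had no promoter here, nor had Cyp7b1 and Slc27a5, so their promoters were not searched. Capitals mark matches on either strand to TGAATGAA or TGAATGGA (octamers bound by capicua), AGGTCA (nuclear receptor half-site), CAAGGTCA or CAAGGCCA (NR5A2 sites), GTTAAT (HNF1 half-site) and CAAAGTCCA (HNF4A site). The last was added after the promoters had been read. AGGTCA lies within CAAGGTCA, so a match to the longer motif counts for both.
Cyp8b1 (GRCm38.p6, chr9:121916256-121916555, minus strand): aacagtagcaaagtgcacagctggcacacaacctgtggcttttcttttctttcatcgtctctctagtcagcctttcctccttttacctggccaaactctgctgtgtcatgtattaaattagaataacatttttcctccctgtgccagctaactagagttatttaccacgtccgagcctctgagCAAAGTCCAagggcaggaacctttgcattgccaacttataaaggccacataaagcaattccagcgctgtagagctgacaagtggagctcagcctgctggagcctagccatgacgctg
Cyp2c70 (GRCm38.p6, chr19:40187237-40187536, minus strand): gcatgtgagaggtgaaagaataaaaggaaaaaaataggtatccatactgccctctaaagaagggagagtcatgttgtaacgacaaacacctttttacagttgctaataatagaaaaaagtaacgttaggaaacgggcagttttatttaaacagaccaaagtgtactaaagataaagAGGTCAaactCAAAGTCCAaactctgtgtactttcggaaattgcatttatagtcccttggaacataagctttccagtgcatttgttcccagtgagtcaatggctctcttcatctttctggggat
Cyp27a1 (GRCm38.p6, chr1:74713285-74713584, plus strand): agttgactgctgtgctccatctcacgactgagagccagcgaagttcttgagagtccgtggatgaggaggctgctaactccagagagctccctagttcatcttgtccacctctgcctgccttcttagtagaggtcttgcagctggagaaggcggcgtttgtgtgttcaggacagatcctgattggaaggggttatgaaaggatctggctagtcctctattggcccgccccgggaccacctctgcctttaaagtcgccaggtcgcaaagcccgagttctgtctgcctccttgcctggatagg
Akr1d1 (GRCm38.p6, chr6:37529923-37530222, plus strand): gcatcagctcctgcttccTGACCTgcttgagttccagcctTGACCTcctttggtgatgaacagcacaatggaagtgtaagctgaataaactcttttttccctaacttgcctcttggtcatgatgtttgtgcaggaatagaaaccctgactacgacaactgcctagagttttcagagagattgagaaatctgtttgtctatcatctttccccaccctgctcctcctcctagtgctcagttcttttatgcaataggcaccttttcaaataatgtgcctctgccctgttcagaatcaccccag

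CAAAGTCCA was found at base 184 of the Cyp8b1 promoter and at base 187 of the Cyp2c70 promoter, and 0.475% of all 32851 promoters of this length hold it. It was picked after these promoters had been read, so the share is no measure of enrichment. AGGTCA was found at base 177 of Cyp2c70 and, on the minus strand, at bases 19 and 41 of Akr1d1, and 16.3% of all promoters hold it. The windows of Cyp27a1, Hsd3b7 and Acox2 held no match. No match to the capicua octamers was found in the 6 enzymes' windows, and TGAATGAA and TGAATGGA occur in 1.3% and 1.21% of promoters. These are letters in a short window and say nothing of binding.

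Of 24 further enzymes and carriers of bile acid synthesis, 16 could be tested, 2 fell and 0 rose, beside 2.9% lower and 4.49% higher among all features. The median difference of these 16 was 0.08. Sult2a8, a liver sulfotransferase of bile acids in mice, fell from 11.24 to 10.15 (2.14-fold, adjusted p = 0.00777). Abcd3, the peroxisomal transporter that carries bile acid intermediates, fell from 13.16 to 12.42 (1.68-fold, adjusted p = 0.0147). For both genes the groups did not overlap, beside 6.55% of all features lower without overlap. Both calls ended without Cic-L-/- replicates 1 and 2 (adjusted p = 0.0873 and 0.142). Other genes of side-chain activation and shortening did not pass: Hsd17b4 differed by 0.22 (adjusted p = 0.346), Scp2 by 0.15 (adjusted p = 0.557) and Slc27a2 by 0.36 (adjusted p = 0.279). The Hsd17b4 groups did not overlap either, but were higher in Cic-L-/- liver, beside 8.53% of all features. Of 12 tested genes of peroxisome biogenesis, 0 passed, with a median of -0.11.

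Regulators of these enzymes were read next. Of 17 tested, 2 fell and 0 rose (median -0.24), beside 2.9% lower and 4.49% higher among all features. The forkhead factor Foxa1 went from 8.52 to 7.31 (2.31-fold, adjusted p = 0.00138) and Cebpb from 12.02 to 11.17 (1.80-fold, adjusted p = 0.017), the latter ending without wildtype replicate 1 (adjusted p = 0.051). The bile acid receptor Nr1h4 (-0.41, adjusted p = 0.239), Nr5a2 (-0.18, adjusted p = 0.734), Hnf4a (-0.24, adjusted p = 0.500) and the FGF co-receptor Klb (0.34, adjusted p = 0.390) did not pass. Nr0b2, which represses Cyp7a1, and Fgfr4, the receptor of the intestinal signal FGF15, were above background on 0 of 8 arrays, so this feedback arm could not be read.

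Cyp7a1 is known to vary over the day, and some clock output genes also differed between the groups. Of 12 tested clock genes, 2 passed as higher and 1 as lower, beside 4.49% higher and 2.9% lower among all features. However, 1 of the higher genes, Per3, met the filter on dim probes only through the Cic-L-/- arrays and gives the count no support. Dbp, a clock-driven activator known to bind the Cyp7a1 promoter in rodents, read 7.84, 7.63, 8.26 and 7.37 in wildtype and 9.20, 9.09, 8.75 and 8.84 in Cic-L-/- liver, a rise of 2.29-fold (adjusted p = 0.00513) that did not pass without Cic-L-/- replicates 1 and 2 (adjusted p = 0.0847). Nfil3, which opposes Dbp at the same sites, went from 9.82 to 9.15 and fell by a factor of 1.59 (adjusted p = 0.0123). It did not pass with median centring (adjusted p = 0.0567) or without Cic-L-/- replicates 1 and 2 (adjusted p = 0.0994). Per3, a period gene, was not above background on any wildtype array and was at least 1.11-fold higher, a bound that was not tested. Its adjusted p of 0.0356 belongs to a difference of 0.61 from wildtype readings within background. The Per3 call ended in most alternatives (adjusted p from 0.0307 to 0.142). The core genes Arntl (-0.32, adjusted p = 0.375), Clock (-0.46, adjusted p = 0.178), Nr1d1 (0.40, adjusted p = 0.329) and Per2 (0.12, adjusted p = 0.845) did not pass. The part of these genes in the fall of Cyp7a1 was not tested.

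**Figure D5:**
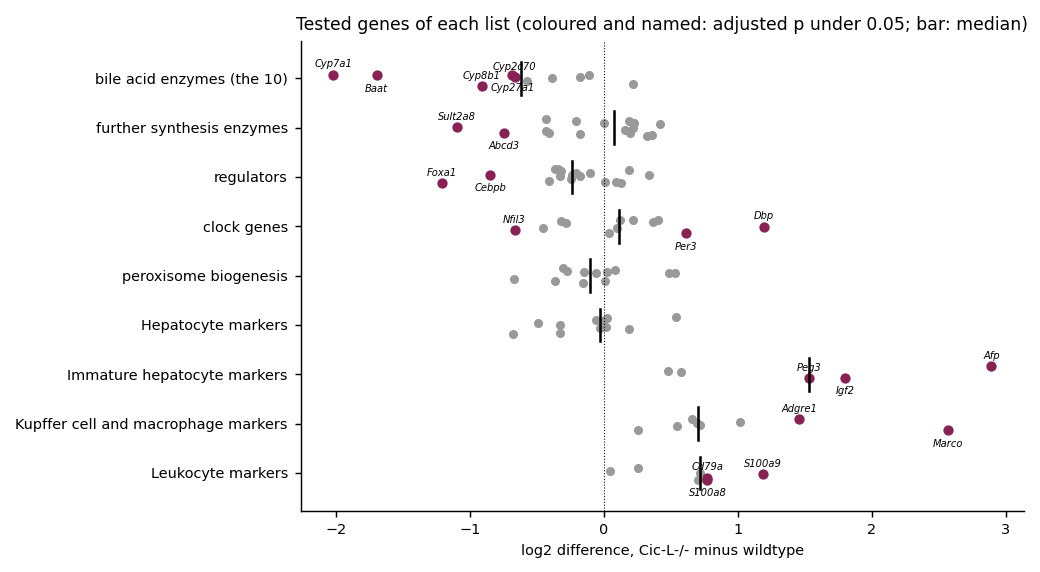
Log2 difference of every tested gene by list, coloured and named where the adjusted p was under 0.05, with a bar at the list's median. The 10 enzymes have a median of -0.62, the further synthesis enzymes 0.08 and the hepatocyte markers -0.03, and the named marker genes Peg3 and Marco were above background on 1 wildtype array each.

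Markers of hepatocytes and of other liver cells were read beside the enzymes. Among all features, 2.9% were called lower and 4.49% higher. Of 11 tested hepatocyte markers, 0 passed in either direction (median -0.03), and their summed linear signal was 163700 to 182900 in Cic-L-/- and 160200 to 177100 in wildtype liver. The Alb probe was dim (mean 5.33 in Cic-L-/- and 6.01 in wildtype liver) and the Tat probe was above background on no array. Of 5 tested immature hepatocyte markers, 3 passed as higher, 1 of which, Peg3, met the filter through the Cic-L-/- arrays and gives the count no support. The list's summed signals were 17530 to 27010 against 6436 to 8521. These sums came mostly from Igf2, the brightest of the list (mean 14.36 in Cic-L-/- and 12.56 in wildtype liver). Afp, silenced in liver after birth, rose 7.43-fold (adjusted p = 0.00433), a log2 difference of 2.89 that was 1.81 without background correction. The imprinted gene Igf2 rose 3.48-fold (adjusted p = 9.03e-05). Peg3, also imprinted, read 6.45 in Cic-L-/- and 4.92 in wildtype liver, where 1 of 4 arrays was above background, so the size of its difference (1.53, or 0.53 without background correction) is uncertain. Without Cic-L-/- replicates 1 and 2 the Afp and Peg3 calls ended (adjusted p = 0.0742 and 0.0688).

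Some macrophage and leukocyte markers rose, beside 4.49% of all features called higher. Of 8 tested macrophage markers 2 passed as higher, Adgre1 and Marco, with summed signals of 3759 to 8483 in Cic-L-/- and 3299 to 3406 in wildtype liver. Of 7 leukocyte markers 3 rose, led by the neutrophil gene S100a9 (2.28-fold, adjusted p = 0.0028). The summed leukocyte signals (3030 to 4602 against 1864 to 2329) came mostly from S100a8 (mean 11.26 in Cic-L-/- and 10.49 in wildtype liver). The other 2 leukocyte calls ended in several alternatives, with adjusted p from 0.0173 to 0.218 for Cd79a and from 0.00711 to 0.191 for S100a8, single-array removals included. Marco read 8.84, 9.19, 5.88 and 7.04 in Cic-L-/- replicates 1 to 4, so it was highest on the arrays with the lowest Cyp7a1 but not the lowest Cyp8b1. Between replicates 3 and 4, the lower Marco went with the lower Cyp7a1. Marco was above background on 1 of 4 wildtype arrays and gives the count no support. Adgre1, a macrophage surface receptor, was also higher in replicates 1 and 2, with 10.21 and 10.34 in replicates 1 and 2 and 8.84 and 9.23 in replicates 3 and 4. Without replicates 1 and 2 neither passed (adjusted p = 0.101 for Marco and 0.0972 for Adgre1), and without replicate 1 alone they also missed the threshold (adjusted p = 0.0731 and 0.0526). Of 4 erythroid, 8 endothelial and 6 stellate markers tested, 0 passed, and the 4 cholangiocyte markers on the array were too dim to test. The part of these cell types in the enzyme results was not tested.

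The genes whose 8 values most resembled those of Cyp7a1 were Nedd4l (Pearson's r = 0.989), Slco1a4 (0.980), Gldc (0.978), Fkbp4 (0.968) and Dnajc3 (0.966). Those nearest to Baat were Apoc2 (0.992), Cyp2b23 (0.981), Cyp2b13 (0.976), Cyp2a5 (0.976) and Cyp2b9 (0.976). The 8 samples form 2 groups that differ in both genes, so the points share that group difference and the r values are descriptions. Cyp2b23, Cyp2b13 and Cyp2b9 are close copies whose probes may share signal, so their separate values are uncertain. Their Cic-L-/- means (4.28, 4.44 and 4.81) lay near the readings of the Cic probe within background (4.33 to 4.88). The r values of these Cyp2b genes with Baat are therefore a contrast of the groups and give the likeness no support. Slco1a4, an organic anion uptake transporter of hepatocytes, differed by -0.72 (adjusted p = 0.0211), and Gldc, a glycine cleavage enzyme, did not pass (-0.56, adjusted p = 0.0801).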

How the data were processed

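Per the labels' protocols, total RNA of 8 mouse liver samples was labelled with Cy3 for Illumina bead arrays. The authors deposited linear intensity values that are not normalised between arrays. The authors also deposited log2 values, which equalled quantile-normalised log2 intensity to within 5e-05, with no background subtraction. Scanner, software and slides were not given in the sources used here.

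Rows without a probe ID (1124) were taken as background controls. Intensities were corrected with limma's normexp (offset 16, limma 3.58.1, R 4.3.3) and quantile normalised. A probe was kept where its detection p was below 0.05 on 4 or more arrays (10300 probes), and the brightest probe stood for a gene, giving 8255 features. Gene names came from GEO's platform annotation, in which 23978 probes had 1 name, 0 had several and 1719 were unnamed here. Groups were compared with limma (lmFit, eBayes, two-sided), with Benjamini-Hochberg adjustment over all features and a threshold of 0.05. In data simulated from the 8255 features with independent normal noise, 100 features were changed by 1 and another 100 by 2 on the log2 scale. Of these, 70% and 98% were recovered, with 8 false calls among 176. The simulation held no pairs of arrays that stood apart and fewer calls than the data, so recovery in the data may differ. The number of arrays limits the precision.

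Named genes were the 10 enzymes, up to 6 called genes of each list, the 5 genes most like Cyp7a1 and Baat, and Cic, Nr1h4, Nr0b2, Fgfr4, Klb, Nr5a2, Hnf4a and Afp. Other list genes that did not pass (Hsd17b4, Scp2, Slc27a2, Arntl, Clock, Nr1d1, Per2, Alb and Tat) were named after their values were seen. Members and lists were chosen with earlier results of these data known. Alternatives changed background correction, normalisation, filter, probe choice, variance model, block and the arrays used.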

Additional observations from a re-analysis of the deposited data

How the results depend on the processing

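The Cyp7a1 and Baat falls kept their direction and passed in all 18 alternatives, while Cyp8b1, Cyp2c70 and Cyp27a1 lost their calls in 8, 8 and 12. Hsd3b7 turned to 0.000973 with median centring. That scaling moved the median difference of all features from 0.00316 to 0.165 and the share of calls that were higher from 60.8% to 83.6%. Among the 10 enzymes, falls numbered 2 with median centring and 3 with the replicate block, which ended the Cyp8b1 (adjusted p = 0.0575) and Cyp2c70 (adjusted p = 0.0708) calls. Same-numbered samples did not deviate together (r from -0.0316 to 0.0504), and 1 of 4 numbers matched best with itself, so they share only a number. The block gave 468 called features.

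With single arrays left out, all calls ranged from 326 (without Cic-L-/- replicate 1) to 628, against 610, with 349 without Cic-L-/- replicate 2 and 388, 398 and 396 without wildtype replicates 1, 2 and 4. Enzyme falls ranged from 2 to 5 and rises in the wider lists from 1 to 2. In the single-array removals and with all arrays used, Per3 was 1 of the rises wherever these numbered 2. Per3 met the filter only through the Cic-L-/- arrays and gives the count no support. With all arrays used, rises were 1 without background correction, with offset 50, with a variance trend and with the block. They were also 1 with probes detected on all 8 arrays, a setting that Per3 could not enter. Over the single-array removals, the within-array contrasts ranged from -1.74 to -1.05 for Cyp7a1 minus Cyp27a1 and from -1.92 to -1.11 for Cyp7a1 minus Cyp7b1. They ranged from -1.52 to -0.76 for Cyp7a1 minus Cyp8b1 and from -1.59 to -1.38 for Baat minus Slc27a5. With all arrays used but no background correction, Baat minus Slc27a5 was -1.30.

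In alternatives chosen after seeing the data, dropping Cic-L-/- replicates 1 and 2 left 148 calls, 2 enzyme falls, and 2 falls and 0 rises in the wider lists. Dropping replicates 3 and 4 left 722 calls, 3 enzyme falls, and 6 falls and 2 rises in the wider lists. Per3 was not among these 2 rises (adjusted p = 0.142). The causes were not tested. Dim probes (Akr1d1, Cyp7b1) limit what can be read.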
